A study of Mus musculus with 39 samples.

Results

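This account covers the testis of 8-day-old mice (P8) in 2 genotypes, wild type (WT) and the group labelled INSL3-KO. The members were every library whose labels give the testis, P8 and one of these genotypes, which made 6 of the 39 RNA-seq libraries of the series, 3 per genotype. All animals were male C57BL/6J mice and no agent was given to any of them. The WT mice carried the unaltered mouse gene, and the second group was labelled as a knockout of Insl3, the gene of insulin-like 3. The sources used here describe how the INSL3-KI line of the same series was made, in which the minke whale coding sequence was put in place of the mouse one, but not how the knockout allele was made. The labels call the 3 libraries of a group biological replicates but tie none to an animal, so p-values here measure the spread between these libraries. The WT libraries stood in the first deposited table and the libraries labelled INSL3-KO in the second, so that genotype and table cannot be told apart in this comparison. Values of P8 INSL3-KI testis, which shared the first table and the same 3 WT libraries, and of P23 testis (INSL3-KO against its own WT, both in the second table) are set beside the results.

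INSL3 is a peptide hormone made by Leydig cells, the steroid-producing cells between the seminiferous tubules. It acts through the receptor RXFP2 and is known for the growth of the gubernaculum, the ligament that draws the fetal testis down. In the early postnatal testis the tubules hold Sertoli cells, which nurse the germ line, and spermatogonia, of which the first are about to leave mitosis and start meiotic prophase, the stage at which chromosomes pair and recombine. Between the tubules lie fetal Leydig cells, their progenitors, peritubular myoid cells, vessels and a collagen-rich matrix.

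The 6 libraries held between 35014761 and 41518622 counts, of which 95.8% to 97.9% fell on the 21561 genes present in both tables. The share of counts on mitochondrially encoded genes was 3.04% to 3.78% in WT and 5.54% to 6.28% in the libraries labelled INSL3-KO. The 3 WT libraries differed among themselves far more than the other 3, with a biological coefficient of variation (the spread between libraries beyond counting error, as a fraction of the mean) of 0.266 against 0.0847. WT replicate 1 had the highest summed level of the meiotic prophase list, 1089 against 692 and 609 CPM (library-scaled counts), and WT replicate 3 the highest summed level of the adipocyte list, 1708 CPM against 457 and 556, and of the extracellular matrix list, 52094 CPM against 23827 and 31933. Results on these lists are therefore also given without those libraries.

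Insl3 (ENSMUSG00000079019) lies on the plus strand of chromosome 8 at chr8:71689214-71690575 of GRCm38, inside the span of the tyrosine kinase gene Jak3, which runs on the same strand from 71676296 to 71690575. It had 2922, 3524 and 2722 counts in the WT libraries and 906, 804 and 613 in the libraries labelled INSL3-KO. All 3 of the latter were below all 3 WT libraries, and none was near 0. In CPM normalized for composition (the trimmed mean of M-values, TMM), the levels were 88.2, 95.3 and 76.9 in WT and 21.7, 21.8 and 16.5 in the libraries labelled INSL3-KO, a log2 fold change of -2.12 (SE 0.13, adjusted p = 3.5e-05) or a 4.34-fold lower level. Scaled by library size alone, the mean level was 25.1% of WT. In contrast, the P8 INSL3-KI testes held 33, 15 and 26 counts, 0.858% of WT, and the P23 testes labelled INSL3-KO held 0, 5 and 0, which was 0.0066% of WT at that age. The levels thus go against a label that names a full loss, and the group is called by its label below. Jak3 itself had 200, 296 and 425 counts in WT and 96, 126 and 139 in the libraries labelled INSL3-KO, fewer counts than Insl3 in each of these libraries, though reads in the shared end of the 2 genes cannot be assigned to either with certainty. The part that the allele or the overlap had in these counts was not tested.

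**Figure D1:**
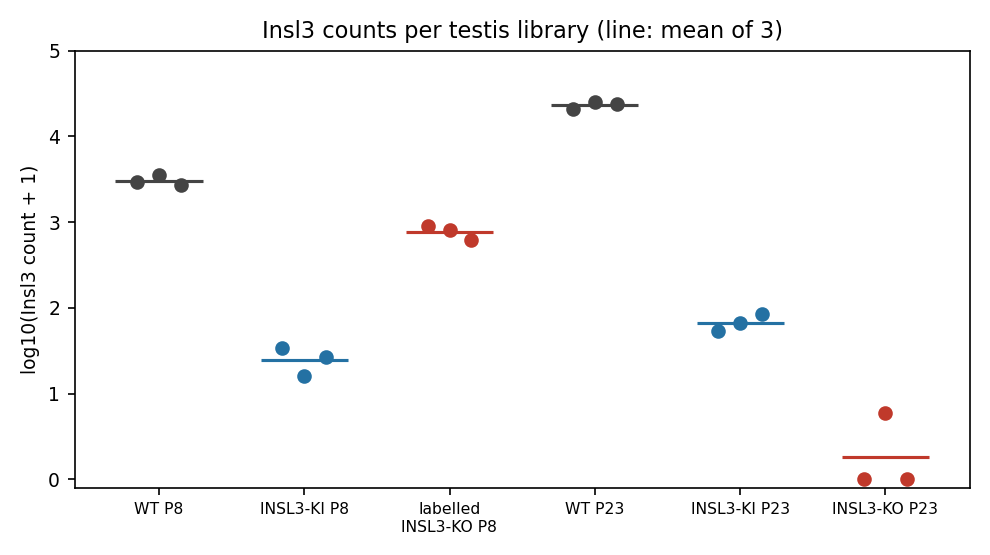
Insl3 counts per testis library on a log10(count + 1) axis, with WT, INSL3-KI and INSL3-KO at P8 and P23 side by side. Points are libraries and lines are means of 3 libraries. The P8 libraries labelled INSL3-KO hold 613 to 906 counts, between WT (2722 to 3524) and INSL3-KI (15 to 33).

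Rxfp2, the receptor of INSL3, was near the limit of detection in this tissue, with 14, 46 and 76 counts in WT and 9, 31 and 25 in the libraries labelled INSL3-KO. The groups overlapped and no difference was called (log2 fold change -1.14, SE 0.71, adjusted p = 0.21). Of the 22 tested genes on the list of INSL3 signalling (ligands, receptors, adenylyl cyclases, protein kinase A and CREB family members), 5 were called lower and 0 higher. Their median log2 fold change was -0.34, and over all genes tested 8.37% were called lower and 5.44% higher. RXFP2 signals through adenylyl cyclases, of which Adcy3 measured 42.8, 43.8 and 47.5 CPM in WT and 17.5, 14.3 and 19.0 CPM in the libraries labelled INSL3-KO. Adcy6 measured 50.7, 61.4 and 85.4 CPM in WT and 25.3, 24.7 and 27.2 CPM in the others. Both cyclases were lower without overlap, Adcy3 by 1.40 (SE 0.12, adjusted p = 0.0001) and Adcy6 by 1.36 (SE 0.18, adjusted p = 0.00072) on the log2 scale, and in P8 INSL3-KI testis neither was called.

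Across the 15723 genes tested, a gene was called when its adjusted p was under 0.01 and its change at least 2-fold. On this rule 1316 genes (8.37%) were lower and 855 (5.44%) higher in the libraries labelled INSL3-KO, and the normalized levels of the 2 groups did not overlap for 64.3% of all genes tested, so that lack of overlap alone was common. These shares are the background for the counts of called genes on every list. The median log2 fold change over all genes was -0.02. Scaled by library size alone, that median became 0.10 and the split 1066 lower to 1122 higher, so the balance of directions rested on the scaling while the lists below are read against the median of all genes. In the same P8 comparison of INSL3-KI with the shared WT libraries, 511 of 15702 genes (3.25%) were lower and 476 (3.03%) higher. These counts fell to between 0 and 11 in each direction when INSL3-KI replicate 1 or 3 or WT replicate 2 or 3 was left out. The INSL3-KI calls given in this account are those of all its libraries, and most were lost in these fits. At P23, 5584 of 16732 genes (33.4%) were lower and 5199 (31.1%) higher in testes labelled INSL3-KO.

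Among germ line genes, those of meiotic prophase were mostly higher. Of the 47 tested genes on the meiotic prophase list (the synaptonemal complex, double-strand breaks, recombination and cohesin), 34 were higher in the libraries labelled INSL3-KO, 0 were lower and 13 were not called, against 5.44% of all genes higher. The median log2 fold change of the list was 2.07, and 2.07 also with Meiob at its counting limit. The 4 promoters printed here, from 250 bases before to 50 after the RefSeq start on GRCm38.p6, belong to the called members with the largest changes among those that hold both of a pair of short motifs, the E-box CACGTG and GCGGGA, which stand in capitals on either strand (TCCCGC is GCGGGA on the other strand).
Hormad1, chr3:95559427-95559726, plus strand: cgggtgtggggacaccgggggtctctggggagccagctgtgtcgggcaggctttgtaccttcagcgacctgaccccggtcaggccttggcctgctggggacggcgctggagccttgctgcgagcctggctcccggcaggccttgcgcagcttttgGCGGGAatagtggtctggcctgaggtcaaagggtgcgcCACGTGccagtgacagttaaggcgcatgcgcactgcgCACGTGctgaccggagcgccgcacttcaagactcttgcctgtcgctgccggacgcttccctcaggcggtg
Sycp3, chr10:88459337-88459636, plus strand: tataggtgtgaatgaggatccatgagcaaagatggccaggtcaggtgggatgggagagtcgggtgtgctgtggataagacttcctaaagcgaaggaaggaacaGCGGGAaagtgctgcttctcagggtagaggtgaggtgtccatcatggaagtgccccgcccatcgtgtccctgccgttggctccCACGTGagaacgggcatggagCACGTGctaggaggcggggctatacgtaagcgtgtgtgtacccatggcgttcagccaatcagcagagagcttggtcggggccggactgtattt
Sycp1, chr3:102936051-102936350, minus strand: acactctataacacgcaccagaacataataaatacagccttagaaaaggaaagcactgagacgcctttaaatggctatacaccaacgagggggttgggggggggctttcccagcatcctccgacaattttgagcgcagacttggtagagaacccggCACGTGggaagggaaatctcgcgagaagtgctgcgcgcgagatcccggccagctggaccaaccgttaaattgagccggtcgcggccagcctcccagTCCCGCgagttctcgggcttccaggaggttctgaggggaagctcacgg
Tex12, chr9:50561219-50561518, minus strand: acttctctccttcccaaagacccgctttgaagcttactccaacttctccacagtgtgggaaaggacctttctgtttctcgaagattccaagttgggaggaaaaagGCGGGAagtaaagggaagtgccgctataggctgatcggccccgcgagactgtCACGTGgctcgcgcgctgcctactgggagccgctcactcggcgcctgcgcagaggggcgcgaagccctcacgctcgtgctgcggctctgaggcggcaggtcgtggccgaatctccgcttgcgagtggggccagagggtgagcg

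Searched on both strands, CACGTG stood in 8 of the 27 matched promoters of called meiotic members (29.6%), against 9.81% of the 12183 promoters of genes tested. GCGGGA stood in 15 of the 27 (55.6%) against 34.0%, and both together in 7 (25.9%) against 3.69%. The tested members of the list, called or not, gave like shares, with CACGTG in 12 of 38 matched promoters (31.6%) and both motifs in 8 (21.1%), whereas the extracellular matrix list had CACGTG in 1 of 29 (3.45%) and both in 0. Among all 855 genes called higher, 688 had a promoter and 9.88% of these held CACGTG, close to the share of all genes tested. A match is a description of these letters and shows no binding.

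Members that build the chromosome axis and the synaptonemal complex, which holds paired chromosomes together, were low in WT and high in the other group. Sycp3 (ENSMUSG00000020059, chr10:88459587-88473236), a lateral element protein, measured 26.5, 14.2 and 10.3 CPM in WT and 205, 206 and 204 CPM in the libraries labelled INSL3-KO. Sycp1 (ENSMUSG00000027855, chr3:102818499-102936100), the transverse filament, measured 52.5, 30.2 and 25.7 CPM in WT against 247, 253 and 256 CPM. Hormad1 (ENSMUSG00000028109, chr3:95559677-95587863), an axis protein that marks unpaired chromosomes, measured 11.6, 6.52 and 4.80 CPM against 110, 105 and 105 CPM. In each of these genes WT replicate 1 was the highest WT library and still far below the other group. Their log2 fold changes were 3.60 (SE 0.32, adjusted p = 0.00013), 2.80 (SE 0.25, adjusted p = 0.00013) and 3.81 (SE 0.29, adjusted p = 7.2e-05). Tex12, a central element protein shown for its promoter and not by the rule for named genes, measured 7.31, 4.95 and 3.22 CPM in WT and 34.1, 34.2 and 31.8 CPM in the libraries labelled INSL3-KO, a log2 fold change of 2.70 (SE 0.27, adjusted p = 0.0002), and the transcript length implied by its counts and FPKM (fragments scaled by transcript length and library size) was shorter in the second table (ratio 0.67).

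Genes of double-strand break formation and repair made up much of the rest. Spo11, whose product cuts the DNA to start recombination, had 41, 14 and 17 counts in WT and 363, 381 and 334 in the libraries labelled INSL3-KO (log2 fold change 3.74, SE 0.44, adjusted p = 0.00041). Prdm9, which sets where those cuts fall, rose from 5.59, 2.06 and 1.92 CPM to 27.2, 25.7 and 28.6 CPM. Rad51ap2 measured 1.09, 0.784 and 1.13 CPM in WT and 16.7, 21.9 and 18.7 CPM in the other group. All 3 genes were separate between groups, and WT replicate 1 lay above the other WT libraries for Spo11 and Prdm9 but not for Rad51ap2. Meiob, needed for recombination repair, had 0, 0 and 3 counts in WT and 629, 692 and 655 in the libraries labelled INSL3-KO, at least 201-fold higher when WT is put at 3 counts per library. Gm49340, a further member of the list, had 0, 20 and 26 counts in WT and 755, 657 and 716 in the other group (log2 fold change 5.405, SE 0.70, adjusted p = 0.00061), at an implied length ratio of 0.42. Dmc1, the meiotic recombinase, measured 15.4, 10.4 and 9.77 CPM in WT and 71.0, 69.5 and 70.7 CPM in the other group (log2 fold change 2.57, SE 0.17, adjusted p = 4.1e-05). The list also held members that were not called, among them the crossover gene Mlh3 with 25.4, 26.4 and 23.6 CPM in WT and 22.2, 25.4 and 22.2 CPM in the libraries labelled INSL3-KO, and the piRNA gene Piwil1 with 7.10, 3.90 and 5.06 CPM against 4.62, 5.27 and 4.75 CPM. Both overlapped between groups, with log2 fold changes of -0.11 (SE 0.09, adjusted p = 0.35) and -0.13 (SE 0.25, adjusted p = 0.68), and their signs turned in some settings. Dmc1, Mlh3 and Piwil1 were picked after their values were seen.

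The count of called meiotic members ranged from 28 to 37 over the fits that each left out 1 library, with 37 when WT replicate 1 was left out and 33 when WT replicate 3 was, and 15 of the 21 members with the same implied transcript length in both tables were higher. The same list had 27 higher and 0 lower members in P8 INSL3-KI testis (background 3.03% and 3.25%), with a median of 2.44, in a comparison that shares the WT libraries. Leaving out INSL3-KI replicate 1 or 3 or WT replicate 2 or 3 left 0 to 11 higher calls over all genes, so most or all of the 27 were lost. At P23 the list went the other way, with 38 of 47 members lower and 0 higher in testes labelled INSL3-KO and a median of -2.82. Of all genes at that age, 33.4% were lower and 31.1% higher. The difference between the ages was tested as an interaction over 12 libraries and was called negative for 42 of the 47 members and positive for 0, where the background over all genes was 27.3% and 28.6%.

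**Figure D2:**
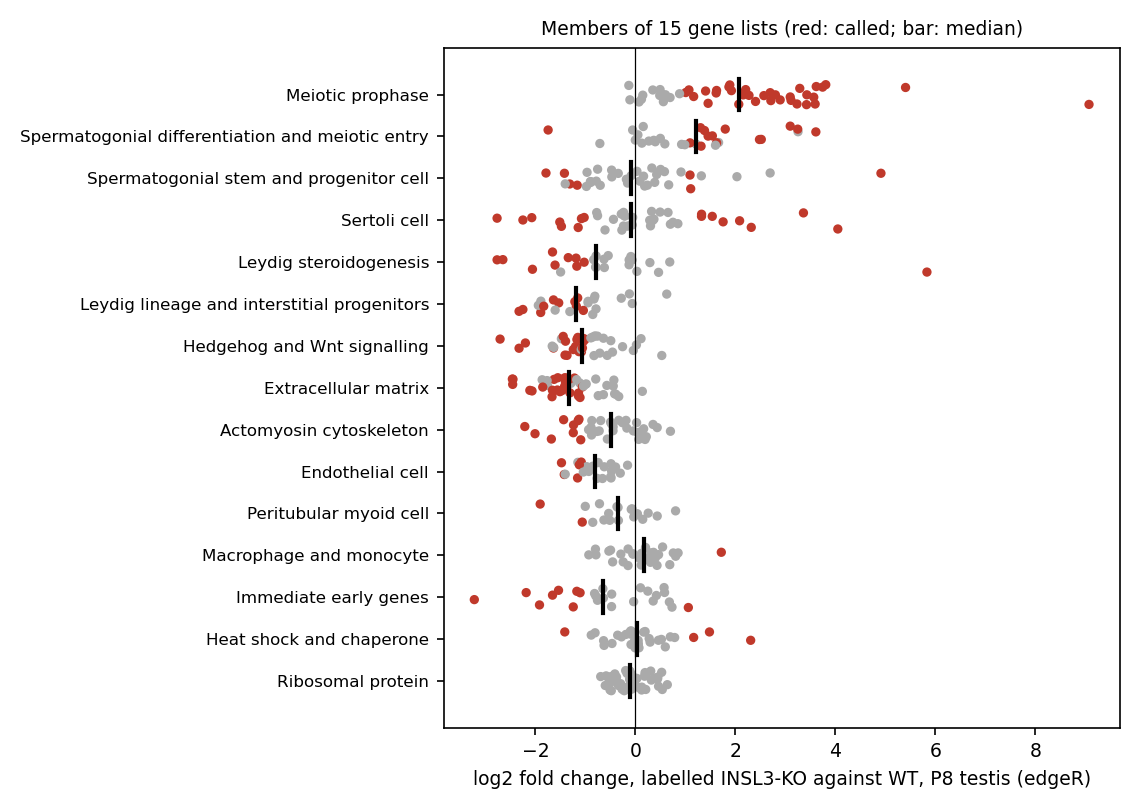
Log2 fold change of every tested member of 15 gene lists in P8 testis, libraries labelled INSL3-KO against WT. Each point is a gene, red where called and grey where not, and the black bar is the list's median, which is 2.07 for meiotic prophase and -1.33 for extracellular matrix.

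Upstream of prophase, the 31 tested genes of spermatogonial differentiation and meiotic entry had 13 members higher and 1 lower, against 5.44% and 8.37% of all genes. Their median was 1.21. Stra8, the retinoic acid target that switches spermatogonia into meiosis, measured 103, 41.8 and 39.5 CPM in WT and 214, 209 and 218 CPM in the libraries labelled INSL3-KO. Meioc, which steadies the meiotic programme, measured 25.3, 4.27 and 3.84 CPM in WT against 133, 132 and 141 CPM. In both genes WT replicate 1 stood well above the other 2 WT libraries and below the other group. Stra8 was higher by 1.80 (SE 0.36, adjusted p = 0.0044) and Meioc by 3.61 (SE 0.70, adjusted p = 0.004) on the log2 scale, and both calls were lost when WT replicate 2 or any 1 library labelled INSL3-KO was left out. Without WT replicate 2 the list had 6 higher members. Tex101, a germ cell surface protein, measured 39.0, 20.6 and 19.5 CPM in WT and 260, 250 and 241 CPM in the libraries labelled INSL3-KO (log2 fold change 3.25, SE 0.27, adjusted p = 9e-05).

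No change was called for the earlier markers of differentiating spermatogonia. Kit, the receptor that marks differentiating spermatogonia, measured 162, 80.7 and 77.8 CPM in WT and 137, 136 and 149 CPM in the libraries labelled INSL3-KO. Sohlh1, a transcription factor of the same cells, measured 67.0, 38.1 and 29.5 CPM in WT and 50.4, 48.4 and 48.3 CPM in the other group. For both, WT replicate 1 was the highest of all 6 libraries and the groups overlapped, with log2 fold changes of 0.40 (SE 0.27, adjusted p = 0.25) and 0.13 (SE 0.27, adjusted p = 0.71). The sign for Sohlh1 turned when WT replicate 3 was left out (-0.10).

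Among the 37 tested genes of spermatogonial stem and progenitor cells, 4 were lower and 3 higher, near the shares of all genes (8.37% and 5.44%). The median was -0.09 (0.04 by library size), with 19 members negative and 18 positive. The members named below are its defining genes and those with the largest called changes. Gfra1, the GDNF receptor of stem cells, measured 33.2, 36.9 and 42.0 CPM in WT and 17.5, 17.4 and 15.02 CPM in the libraries labelled INSL3-KO. Its co-receptor Ret measured 72.3, 66.6 and 57.4 CPM in WT against 21.3, 17.2 and 18.3 CPM, and Etv5, a target of GDNF, 67.6, 84.4 and 80.2 CPM against 31.8, 32.8 and 28.8 CPM. All 3 were lower without overlap, Gfra1 by 1.17 (SE 0.12, adjusted p = 0.0002), Ret by 1.79 (SE 0.12, adjusted p = 4.1e-05) and Etv5 by 1.31 (SE 0.10, adjusted p = 7.3e-05) on the log2 scale. Zbtb16, another marker of undifferentiated spermatogonia, measured 75.7, 50.6 and 46.4 CPM in WT and 30.05, 26.8 and 30.6 CPM, and at a log2 fold change of -0.98 (adjusted p = 0.0034) missed the 2-fold limit. Id4 measured 19.96, 25.6 and 30.5 CPM against 13.6, 15.2 and 12.2 CPM (log2 fold change -0.89, adjusted p = 0.0037), yet in the deposited FPKM its difference was positive (0.40 in log2(FPKM + 0.1)), and its implied length was shorter in the second table (ratio 0.43). Magea4, an X-linked germ cell gene on the same list, went up from 11, 6 and 8 counts to 316, 235 and 293 (log2 fold change 4.91, SE 0.32, adjusted p = 3.7e-05).

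Of the 38 listed spermatid and sperm genes, 23 were tested, of which 3 were lower and 1 higher (median 0.31). Over all genes, 8.37% were lower and 5.44% higher. The summed level of the 23 was 254 to 258 CPM in WT and 274 to 285 CPM in the libraries labelled INSL3-KO. Acr, the acrosomal protease, had 11, 16 and 13 counts in WT and 0, 2 and 0 in the libraries labelled INSL3-KO, at least 4.84-fold lower against 3 counts per library, a call lost in every fit that left out a library. Spata21 measured 28.5, 39.5 and 30.9 CPM in WT and 5.33, 5.05 and 6.17 CPM in the libraries labelled INSL3-KO. The WT libraries were above the others throughout (log2 fold change -2.58, SE 0.16, adjusted p = 3.2e-05), and its log2 fold change in P8 INSL3-KI testis was -3.44 and called.

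**Figure D3:**
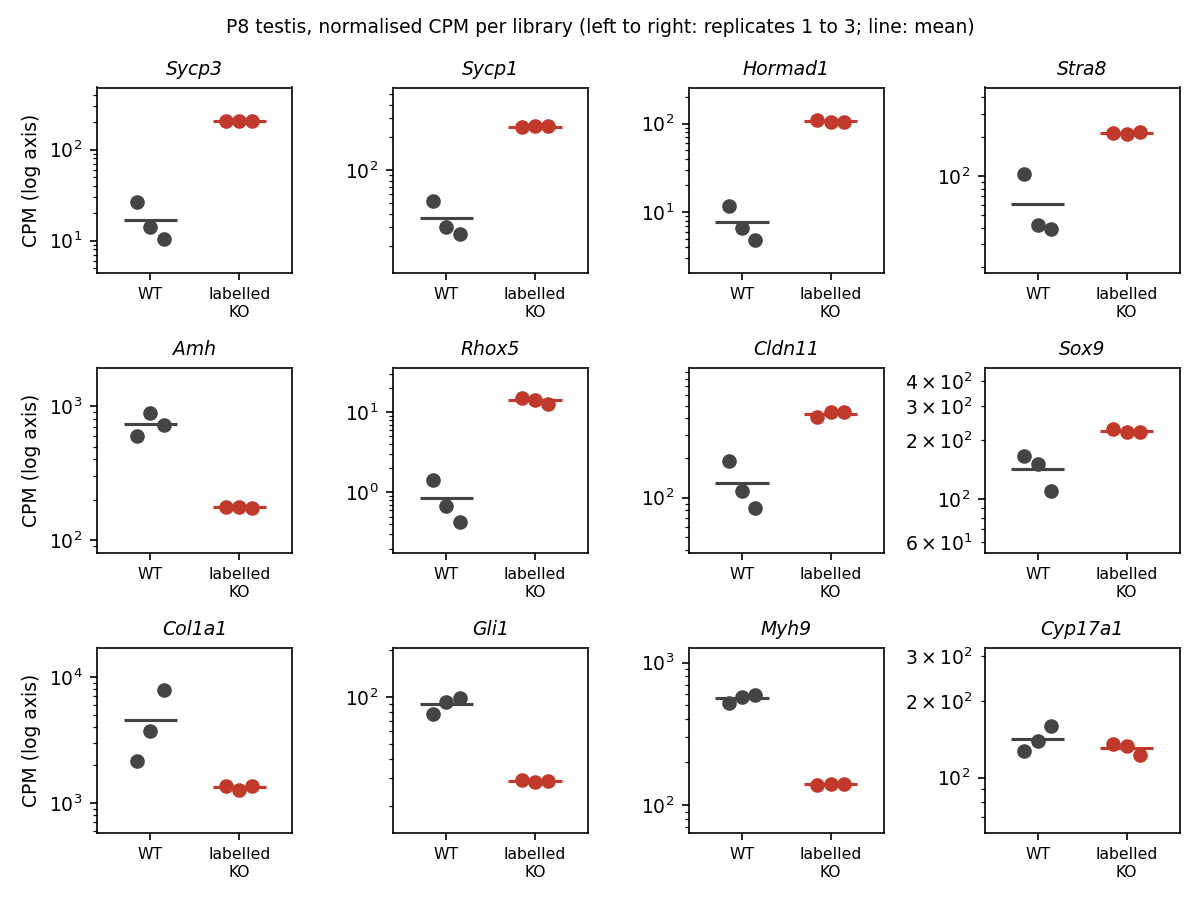
TMM-normalized CPM (log axis) of 12 genes in the 3 WT libraries (grey) and the 3 libraries labelled INSL3-KO (red) at P8, with replicates 1 to 3 from left to right and the mean as a line. WT replicate 1 is the highest WT library for Sycp3, Sycp1, Hormad1 and Stra8, and WT replicate 3 the highest for Col1a1, while the red points lie close together.

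Sertoli cell genes moved in both directions. Of 40 tested, 8 were lower and 8 higher, against 8.37% and 5.44% of all genes, and 24 were not called. The median was -0.09 (0.03 by library size). Amh (ENSMUSG00000035262, chr10:80805240-80807679), the anti-Müllerian hormone that immature Sertoli cells secrete, measured 598, 898 and 722 CPM in WT and 176, 177 and 174 CPM in the libraries labelled INSL3-KO. Dhh, the hedgehog ligand of Sertoli cells, measured 301, 314 and 224 CPM in WT and 133, 132 and 132 CPM in the other group. Both were lower in every library, Amh by 2.07 (SE 0.14, adjusted p = 4.4e-05) and Dhh by 1.08 (SE 0.12, adjusted p = 0.00035) on the log2 scale. The call of Amh was kept in every setting, while that of Dhh, whose implied length was shorter in the second table (ratio 0.56), was lost with library size scaling and without WT replicate 1 or 2.

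Sox9, the transcription factor that defines Sertoli cells, measured 165, 151 and 110 CPM in WT and 227, 221 and 220 CPM in the libraries labelled INSL3-KO, higher in each library but short of 2-fold (log2 fold change 0.65, SE 0.14, adjusted p = 0.0061). Gata1, an erythroid and Sertoli transcription factor that comes on as the tubules mature, measured 19.8, 9.47 and 7.23 CPM in WT and 60.6, 58.7 and 62.3 CPM. Rhox5 (ENSMUSG00000095180), an X-linked homeobox gene of postnatal Sertoli cells, measured 1.45, 0.676 and 0.424 CPM in WT and 15.1, 14.2 and 12.8 CPM. Gata1 was higher by 2.32 (SE 0.34, adjusted p = 0.0011) and Rhox5 by 4.05 (SE 0.41, adjusted p = 0.00022) on the log2 scale, again with WT replicate 1 nearest to the other group. Tsx, a testis gene beside the X-inactivation centre, measured 0.513, 0.839 and 0.734 CPM in WT and 7.68, 7.47 and 6.44 CPM (log2 fold change 3.36, SE 0.26, adjusted p = 7.4e-05). Cldn11, the claudin of the blood-testis barrier, measured 191, 113 and 82.8 CPM in WT and 412, 444 and 449 CPM (log2 fold change 1.75, SE 0.28, adjusted p = 0.0015), a call lost without WT replicate 2. It was the single higher member of the 27 tested junction genes, of which 2 were lower, with a median of -0.16. Over all genes, 5.44% were higher and 8.37% lower.

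Amh, Gata1, Rhox5, Tsx and Cldn11 were also called in P8 INSL3-KI testis against the same WT libraries, with log2 fold changes of -2.15, 2.31, 4.01, 4.76 and 1.71. At P23 all 5 genes were higher in testes labelled INSL3-KO, Amh by 3.64, Gata1 by 2.77, Rhox5 by 2.65, Tsx by 1.96 and Cldn11 by 2.72 on the log2 scale. At that age 37 of the 40 Sertoli genes were called higher, against 31.1% of all genes.

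The Leydig cells are the source of INSL3. Of 26 tested genes of steroidogenesis, 9 were lower and 1 was higher, against 8.37% and 5.44% of all genes, and 16 were not called. The median was -0.79. For the enzymes of the early steps no change was called. Cyp17a1, which makes androgen precursors, measured 127, 140 and 160 CPM in WT and 135, 133 and 123 CPM in the libraries labelled INSL3-KO. Hsd3b1 measured 221, 251 and 200 CPM in WT and 211, 213 and 207 CPM in the other group. The groups overlapped for both, with log2 fold changes of -0.13 (SE 0.09, adjusted p = 0.28) and -0.09 (SE 0.09, adjusted p = 0.40), and the sign of Hsd3b1 turned with library size scaling (0.033). Cyp11a1, the enzyme that cleaves the cholesterol side chain, measured 139, 154 and 152 CPM against 100, 106 and 99.6 CPM (log2 fold change -0.54, SE 0.06, adjusted p = 0.00038), below the 2-fold limit. Star, which brings cholesterol into mitochondria, measured 58.6, 105 and 80.2 CPM in WT and 46.4, 45.5 and 48.2 CPM, separate between groups but short of the limit (log2 fold change -0.80, SE 0.19, adjusted p = 0.0096).

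Of the enzymes of the last steps of androgen and estrogen synthesis, Hsd17b3, which makes testosterone, measured 98.5, 131 and 103 CPM in WT and 24.9, 27.3 and 27.4 CPM in the libraries labelled INSL3-KO. Hsd17b1, a reductase of the same family that was also on the Sertoli cell list, measured 73.1, 127 and 100 CPM in WT and 15.4, 15.4 and 13.3 CPM in the other group. Which cells accounted for these differences was not tested. Both were lower in all 3 libraries, Hsd17b3 by 2.06 (SE 0.12, adjusted p = 2.7e-05) and Hsd17b1 by 2.77 (SE 0.20, adjusted p = 5.4e-05) on the log2 scale. Hsd3b6, the isoform of adult Leydig cells, was the 1 member that was higher, with 3, 0 and 3 counts in WT and 147, 110 and 143 in the libraries labelled INSL3-KO, at least 40.4-fold against 3 counts per library. In P8 INSL3-KI testis Cyp17a1 was called lower, with a log2 fold change of -2.95, and 10 steroidogenic genes were lower and 1 higher.

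Lhcgr, the receptor through which luteinizing hormone drives Leydig cells, had 28.0, 29.4 and 30.3 CPM in WT and 13.1, 10.9 and 14.96 CPM in the libraries labelled INSL3-KO (log2 fold change -1.17, SE 0.13, adjusted p = 0.0003). Per length the direction turned, with a difference of 0.25 in log2(FPKM + 0.1), and the implied transcript was shorter in the second table (ratio 0.39). Counts and FPKM thus give Lhcgr opposite signs.

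In the Leydig lineage and interstitial progenitor list, 11 of 25 tested genes were lower and 0 higher, against 8.37% and 5.44% of all genes. The median was -1.18. Dlk1, an imprinted membrane protein of fetal Leydig cells, measured 963, 1157 and 1593 CPM in WT and 342, 332 and 325 CPM in the libraries labelled INSL3-KO. Pdgfra, the receptor of interstitial progenitors, measured 499, 616 and 718 CPM against 270, 276 and 277 CPM. For both, the 3 libraries labelled INSL3-KO lay close together below the lowest WT library, with differences of -1.89 (SE 0.17, adjusted p = 0.00014) and -1.16 (SE 0.12, adjusted p = 0.00027) on the log2 scale. Ptgds, a prostaglandin synthase, measured 23.3, 48.4 and 43.0 CPM in WT and 8.30, 8.31 and 7.47 CPM in the other group (log2 fold change -2.25, SE 0.26, adjusted p = 0.00039). Nr2f2, a marker of stem Leydig cells, measured 129, 168 and 220 CPM against 86.0, 90.1 and 92.1 CPM and missed the limit (log2 fold change -0.95, adjusted p = 0.0031). At P23, 18 of 23 tested members of the list were higher and 3 lower, against 31.1% and 33.4% of all genes at that age.

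Extracellular matrix genes were lower as a group. Of 45 tested, 26 were lower, 0 higher and 19 not called, against 8.37% of all genes lower, and the median was -1.33. Fibrillar collagens led in level. Col1a1 (ENSMUSG00000001506, chr11:94936224-94953042) measured 2160, 3718 and 7805 CPM in WT and 1367, 1269 and 1354 CPM in the libraries labelled INSL3-KO, and Col1a2 measured 2576, 4008 and 7184 CPM against 2139, 2071 and 2134 CPM. WT replicate 3 carried more than the sum of the other 2 WT libraries for both collagens, and WT replicate 1 came close to the other group. Col1a1 was lower by 1.78 (SE 0.41, adjusted p = 0.0089), a call lost without WT replicate 2 and without any 1 library labelled INSL3-KO, and Col1a2 with -1.12 (SE 0.33, adjusted p = 0.023) was not called.

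The basement membrane and elastic fibre genes were more even across WT. Hspg2 (ENSMUSG00000028763, chr4:137468751-137570630), which encodes the basement membrane proteoglycan perlecan, measured 799, 795 and 1017 CPM in WT and 165, 152 and 158 CPM in the libraries labelled INSL3-KO. Fbln2, a fibulin, measured 151, 174 and 265 CPM against 36.1, 36.4 and 34.3 CPM. Eln, elastin, measured 650, 693 and 1263 CPM against 185, 203 and 214 CPM, with a shorter implied length in the second table (ratio 0.67). No WT library came near the other group, and the log2 fold changes were -2.46 (SE 0.11, adjusted p = 1.1e-05), -2.46 (SE 0.20, adjusted p = 9.6e-05) and -2.11 (SE 0.25, adjusted p = 0.00044). Vcan, a large proteoglycan, measured 73.7, 121 and 205 CPM in WT and 23.3, 25.5 and 24.3 CPM (log2 fold change -2.45, SE 0.34, adjusted p = 0.00086).

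Without WT replicate 3, the library with the highest matrix level, 20 matrix genes were lower and the median was -0.94. Without WT replicate 1, 34 were lower, and 16, 16 and 17 were lower when INSL3-KO replicate 1, 2 or 3 was left out. With the length trend removed 17 were lower, and among the genes of like implied length (within 10% between the tables) 23 of 39 were lower with a median of -1.31. P8 INSL3-KI testis had 11 lower and 0 higher of 45, against 3.25% and 3.03% of all genes, with a median of -1.36. The testes labelled INSL3-KO at P23 had 34 higher and 3 lower, against 31.1% and 33.4% of all genes at that age.

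The hedgehog and Wnt list (ligands, receptors, effectors and targets) had 19 of 38 tested genes lower and 0 higher, against 8.37% and 5.44% of all genes. Its median was -1.07. Gli1 (ENSMUSG00000025407, chr10:127329882-127341579), a transcription factor whose level reports hedgehog signalling, measured 78.0, 93.2 and 97.9 CPM in WT and 29.4, 28.4 and 28.6 CPM in the libraries labelled INSL3-KO. Ror2, a Wnt5a receptor, measured 32.5, 38.8 and 44.7 CPM against 7.92, 8.15 and 9.14 CPM. The ligand Wnt5a measured 107, 138 and 161 CPM against 70.9, 58.8 and 67.6 CPM. All 3 were lower without overlap, Gli1 by 1.64 (SE 0.10, adjusted p = 2.7e-05), Ror2 by 2.20 (SE 0.14, adjusted p = 3.5e-05) and Wnt5a by 1.04 (SE 0.15, adjusted p = 0.0011) on the log2 scale, the last just past the 2-fold limit and lost without WT replicate 3 or with library size scaling. Fzd4, a frizzled receptor, measured 19.7, 16.1 and 49.2 CPM in WT and 4.09, 4.07 and 4.83 CPM (log2 fold change -2.71, SE 0.43, adjusted p = 0.0016), with an implied length ratio of 0.55. Hhip, a hedgehog-binding decoy receptor and target, measured 54.7, 76.3 and 73.1 CPM against 13.2, 12.9 and 14.6 CPM (log2 fold change -2.33, SE 0.14, adjusted p = 2.8e-05), but its implied length ratio was 0.14 and per length its difference was 0.15 in log2(FPKM + 0.1), the opposite sign.

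Without WT replicate 3 the hedgehog and Wnt list had 14 lower members, and with the scaling by library size 13. The call of Gli1 was kept in every setting, and its P8 INSL3-KI log2 fold change was -1.19 and called. In P8 INSL3-KI testis, 4 of 38 list members were lower and 0 higher, against 3.25% and 3.03% of all genes, with a median of -1.05.

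Genes of other signalling pathways were mostly not called. Of 33 tested TGF-beta and BMP genes 7 were lower and 0 higher, with a median of -0.37 (all genes: 8.37% lower and 5.44% higher). Smad6, an inhibitor of BMP signalling, measured 52.8, 51.3 and 57.9 CPM in WT and 10.7, 13.5 and 11.4 CPM in the libraries labelled INSL3-KO (log2 fold change -2.18, SE 0.11, adjusted p = 1.7e-05). Of 30 AMPK and Notch genes 3 were lower and 1 higher, with a median of -0.14, a share near the 8.37% of all genes called lower. The receptor Notch3 measured 62.0, 70.1 and 100 CPM in WT and 11.7, 13.8 and 12.8 CPM, and the Notch target Heyl 92.3, 113 and 115 CPM against 38.04, 35.7 and 38.9 CPM. Both were lower in every library, by 2.60 (SE 0.19, adjusted p = 5.4e-05) and 1.51 (SE 0.10, adjusted p = 3.8e-05) on the log2 scale. Among the 24 hormone and gonadotropin receptor genes tested, 5 were lower and 0 higher (median -0.36). The largest difference there was that of Inhba, an activin subunit, with 48.6, 64.5 and 70.3 CPM in WT and 1.82, 1.06 and 1.27 CPM in the libraries labelled INSL3-KO (log2 fold change -5.46, SE 0.24, adjusted p = 1e-05), at an implied length ratio of 0.25.

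Retinoic acid genes gave 3 higher and 1 lower of 22 (median 0.06), against 5.44% and 8.37% of all genes. Aldh1a2, which makes retinoic acid, measured 82.4, 72.0 and 80.5 CPM in WT and 160, 169 and 168 CPM in the libraries labelled INSL3-KO. Cyp26a1, which degrades it, measured 2.42, 1.27 and 1.64 CPM in WT and 7.82, 8.26 and 8.03 CPM. Both were higher without overlap, by 1.08 (SE 0.07, adjusted p = 3.5e-05) and 2.18 (SE 0.27, adjusted p = 0.00049) on the log2 scale, and Aldh1a2 lay close to the 2-fold limit.

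Contractile and cytoskeletal genes were lower in part. Of 36 tested actomyosin genes, 9 were lower and 0 higher, against 8.37% and 5.44% of all genes, with a median of -0.49. Myh9 (ENSMUSG00000022443, chr15:77760585-77842175), the heavy chain of non-muscle myosin IIA, measured 523, 572 and 593 CPM in WT and 138, 140 and 141 CPM in the libraries labelled INSL3-KO. Flnc, a filamin, measured 75.9, 89.6 and 124 CPM against 20.6, 21.7 and 20.2 CPM. The 2 groups were far apart for both, with log2 fold changes of -2.01 (SE 0.07, adjusted p = 4.3e-06) and -2.21 (SE 0.18, adjusted p = 8.2e-05). Of the smooth muscle genes of peritubular myoid cells, Acta2 measured 689, 819 and 998 CPM in WT and 877, 844 and 843 CPM in the other group, and Myh11 measured 246, 260 and 325 CPM against 212, 221 and 219 CPM. Acta2 overlapped (log2 fold change 0.03, SE 0.13, adjusted p = 0.84, with a sign that turned without WT replicate 1), and Myh11 with -0.35 (SE 0.10, adjusted p = 0.026) was not called. Of 20 tested myoid genes 2 were lower and 0 higher (median -0.34), and without WT replicate 3 there were 1 lower and 1 higher (median -0.032). The 10 myoid genes of the same implied length had a median of -0.030.

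The P8 Myh9 log2 fold change in INSL3-KI testis was -1.29 and called, and at P23 the testes labelled INSL3-KO had a higher Myh9 level, by 2.23 on the log2 scale. Six5, a homeobox gene, measured 44.6, 57.8 and 53.1 CPM in WT and 21.2, 23.4 and 25.3 CPM in the libraries labelled INSL3-KO (log2 fold change -1.15, SE 0.12, adjusted p = 0.00022). Tmem119, a membrane protein of bone and microglia, measured 23.3, 34.8 and 49.6 CPM against 17.3, 17.8 and 16.6 CPM (log2 fold change -1.06, SE 0.25, adjusted p = 0.0089), a call lost without WT replicate 2 or 3 and without any 1 library of the other group.

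Markers of fat and of vessels were lower in part, and they varied widely among the WT libraries. Car3, a carbonic anhydrase of fat and muscle, measured 39.7, 61.9 and 576 CPM in WT and 9.88, 6.03 and 9.68 CPM in the libraries labelled INSL3-KO. The fat hormone Adipoq measured 3.74, 6.79 and 43.8 CPM against 1.12, 0.896 and 0.917 CPM, and the lipid droplet gene Plin1 26.6, 33.1 and 119 CPM against 6.24, 8.31 and 6.61 CPM. WT replicate 3 was the highest for all 3 genes, and the other 2 WT libraries were still above the other group. Of 16 tested adipocyte genes 5 were lower and 0 higher (median -2.37), and without WT replicate 3 there were 6 lower and 1 higher (median -1.40). The summed adipocyte level was 457 to 1708 CPM in WT and 216 to 223 CPM in the libraries labelled INSL3-KO. Endothelial genes had 5 lower and 0 higher of 22 (median -0.81), where 8.37% of all genes were lower and 5.44% higher. Their summed level was 568 to 926 CPM against 356 to 366 CPM, and without WT replicate 3 there were 4 lower (median -0.50). Cdh5, the cadherin of endothelial junctions, measured 133, 147 and 194 CPM in WT and 60.7, 56.2 and 59.9 CPM (log2 fold change -1.42, SE 0.14, adjusted p = 0.00018), whereas Pecam1, at 33.0, 40.1 and 76.8 CPM against 21.003, 21.999 and 24.5 CPM, was not called (log2 fold change -1.15, SE 0.30, adjusted p = 0.014). The part that fat, vessel or capsule carried along in the WT samples had in the matrix and interstitial results was not tested. In whole testis RNA, fewer cells of a type and less RNA per cell cannot be told apart.

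Of 31 macrophage and monocyte genes 0 were lower and 1 was higher (median 0.18), with a summed level of 230 to 471 CPM in WT and 324 to 337 CPM in the libraries labelled INSL3-KO. WT replicate 3 had the highest of these levels, and without it 4 were higher (median 0.46). For this list and those that follow, 8.37% of all genes were lower and 5.44% higher in the main fit. Of 32 inflammation and complement genes 1 was lower and 1 higher (median -0.06), with Tnf at 3 counts or fewer. Epididymis and efferent duct genes had 1 lower and 3 higher of 17 (median -0.36), with the defining markers Lcn5 and Lcn8 at 3 counts or fewer, and skeletal muscle genes 2 lower and 1 higher of 24 (median -0.31). Erythroid genes had 1 lower and 1 higher of 12 (median -0.81), mesothelium genes 0 of 11 in either direction (median -0.80), and hepatocyte genes 0 of 5 (median 0.95). Without WT replicate 3 the mesothelium median was 0.76 and the epididymis median 0.092, both of the opposite sign, and the mesothelium median was -0.11 with the replicate block.

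The remaining lists concern the state of the cells. Immediate early genes, which respond within minutes to a stimulus, had 8 lower and 1 higher of 25 (median -0.64), against 8.37% and 5.44% of all genes. Their summed level was 1732 to 1892 CPM in WT and 794 to 821 CPM in the libraries labelled INSL3-KO. Jund, an AP-1 subunit, measured 914, 924 and 817 CPM against 197, 198 and 188 CPM, Cyr61 66.6, 62.8 and 81.8 CPM against 18.3, 20.1 and 17.4 CPM, and Egr1 91.6, 127 and 122 CPM against 51.7, 52.1 and 54.5 CPM. All 3 were lower without overlap, Jund by 2.19 (SE 0.07, adjusted p = 4.2e-06), Cyr61 by 1.92 (SE 0.12, adjusted p = 3.2e-05) and Egr1 by 1.11 (SE 0.12, adjusted p = 0.00032) on the log2 scale, whereas Fos, at 4.56, 5.52 and 4.35 CPM against 7.68, 8.12 and 5.82 CPM, was not called (log2 fold change 0.58, SE 0.20, adjusted p = 0.044). Jund had an implied length ratio of 1.73.

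Cell cycle genes had 5 lower and 1 higher of 40 (median -0.33). For this list and those that follow, 8.37% of all genes were lower and 5.44% higher. Ccnd2, a cyclin of the first gap phase, measured 389, 537 and 469 CPM in WT and 137, 132 and 146 CPM in the libraries labelled INSL3-KO, and Ccne2, a cyclin of the start of DNA replication, 23.4, 15.7 and 15.3 CPM against 89.7, 91.0 and 95.7 CPM. The 2 cyclins went in opposite directions, Ccnd2 by -1.75 (SE 0.12, adjusted p = 4.4e-05) and Ccne2 by 2.35 (SE 0.17, adjusted p = 5e-05) on the log2 scale. Apoptosis and p53 genes had 3 lower and 1 higher of 30 (median 0.16), heat shock genes 1 lower and 3 higher of 32 (median 0.02), cholesterol genes 1 lower and 1 higher of 29 (median 0.02), and replication-dependent histone genes, whose transcripts lack a poly(A) tail, 5 lower and 0 higher of 12 (median -1.66). None of the 53 tested ribosomal protein genes was called (median -0.11). Mitochondrially encoded genes had 4 higher and 0 lower of 13 (median 0.63), led by mt-Nd6 with 740, 700 and 589 CPM in WT and 1558, 1747 and 2025 CPM in the libraries labelled INSL3-KO (log2 fold change 1.39, SE 0.12, adjusted p = 0.00012) and mt-Cytb with 3105, 2872 and 2649 CPM against 5902, 6167 and 6533 CPM (log2 fold change 1.11, SE 0.08, adjusted p = 4.8e-05).

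The largest changes among genes with the same symbol and implied length in both tables included several germ line genes on the higher side. Prss50 (ENSMUSG00000048752, chr9:110857964-110864629), a testis serine protease, had 354, 22 and 21 counts in WT and 4996, 4212 and 4415 in the libraries labelled INSL3-KO. Ly6k, a surface protein of germ cells, had 69, 5 and 6 counts against 1791, 1473 and 1452. Cuzd1 had 6, 4 and 17 counts against 485, 421 and 491. For the first 2, WT replicate 1 stood well above the other WT libraries, and for Cuzd1 WT replicate 3 was the highest. Their log2 fold changes were 4.92 (SE 0.95, adjusted p = 0.004), 5.71 (SE 0.76, adjusted p = 0.00072) and 5.54 (SE 0.45, adjusted p = 9.2e-05), the first of which lost its call without WT replicate 2 or any 1 library labelled INSL3-KO. Dpep3, a dipeptidase of meiotic cells, measured 14.4, 4.63 and 4.52 CPM in WT and 104, 97.8 and 96.5 CPM, Gal3st1, a sulfotransferase for germ cell glycolipids, 1.09, 0.433 and 1.13 CPM against 16.1, 11.7 and 13.6 CPM, and Gja6, a connexin, 1.15, 0.108 and 0.565 CPM against 11.5, 10.5 and 12.4 CPM. The set was completed by Rhox5, Hormad1, Rad51ap2 and Pcsk1n, a neuroendocrine protease inhibitor with 5.77, 2.71 and 1.102 CPM in WT and 56.1, 54.8 and 52.8 CPM in the other group. In P8 INSL3-KI testis, Dpep3, Gal3st1, Gja6 and Pcsk1n were called higher as well, with log2 fold changes of 4.09, 4.35, 4.69 and 5.11.

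On the lower side the set was mixed. Besides Car3, Adipoq and Hsd17b1 it held Agtr2, the type 2 angiotensin receptor, with 77.0, 137 and 257 CPM in WT and 20.02, 18.6 and 19.4 CPM, and the desmosome gene Dsp with 31.3, 57.7 and 63.9 CPM against 6.84, 7.63 and 7.04 CPM. The stress-responsive ligand Gdf15 measured 6.16, 12.3 and 9.69 CPM in WT and 0.646, 0.951 and 0.377 CPM, and the MAP kinase phosphatase Dusp4 8.36, 8.09 and 12.5 CPM against 1.48, 1.17 and 1.13 CPM. Soga1, a regulator of glucose metabolism, measured 73.4, 64.1 and 65.1 CPM against 9.497, 8.47 and 10.5 CPM, and Mdga1, a cell adhesion protein, 21.5, 32.8 and 33.3 CPM against 3.44, 3.39 and 3.18 CPM. Vash1, an inhibitor of vessel growth, measured 16.8, 11.8 and 15.6 CPM against 2.63, 1.55 and 2.18 CPM. Car3, Adipoq and Hsd17b1 aside, these genes were all separate between groups, with log2 fold changes from -2.79 for Vash1 to -3.83 for Gdf15. Agtr2, with -3.02 (SE 0.41, adjusted p = 0.00075), was highest in WT replicate 3 and lowest in WT replicate 1 of the WT libraries.

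For each gene, the transcript length that the deposited counts and FPKM imply was compared between the tables, since counts rise with the length over which reads are counted. Among the 275 tested genes whose implied length was over 2-fold shorter in the second table, 34.2% were lower and 4.36% higher in the libraries labelled INSL3-KO, with a median of -0.66. Among the 43 genes whose length was over 2-fold longer, 6.98% were lower and 27.9% higher. The 12440 genes whose lengths agreed within 10% had 7.19% lower and 5.46% higher, close to the shares of all genes. In P8 INSL3-KI testis, where both groups stood in the first table, the genes shorter in the second table had 1.82% lower and 4.0% higher.

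**Figure D4:**
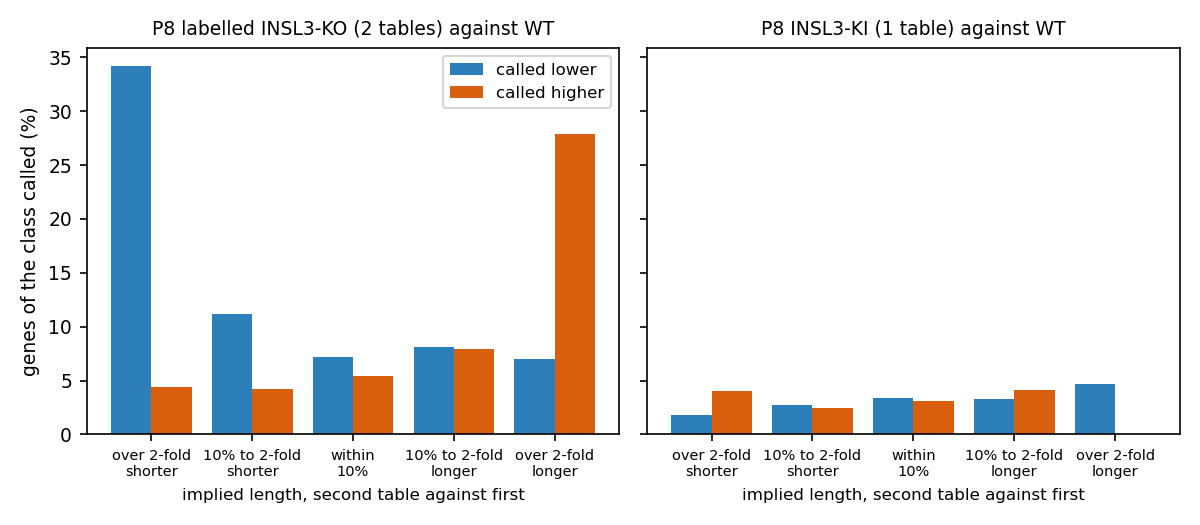
Share of tested genes called lower (blue) and higher (orange), in percent, by how the implied transcript length in the second table compares with the first, for the P8 libraries labelled INSL3-KO (left, 2 tables) and P8 INSL3-KI (right, 1 table) against WT. At left, 34.2% of genes over 2-fold shorter are lower and 27.9% of those over 2-fold longer are higher, while in the right panel the shares are 1.82% and 4.0% for the shorter genes.

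Without any condition on the tables, the 3 largest changes on each side were the following. On the higher side stood Meiob, Gm49342 with 1, 0 and 1 counts in WT against 943, 779 and 801 in the libraries labelled INSL3-KO (at least 255-fold against 3 counts per library), and Nupl1 with 11, 0 and 0 counts against 3526, 3238 and 3068. Gm49342 and Nupl1 were also among the 19 genes whose level differed at least 2-fold without overlap between the other libraries of the 2 tables. Those libraries included gubernaculum and other ages, so a gene limited to some tissues or ages could escape this check. Meiob was not marked by the check, and that does not clear it. On the lower side stood Naaladl2 with 325, 409 and 388 counts against 6, 0 and 6, at an implied length ratio of 0.15, Prrt2 with 479, 533 and 608 counts against 1, 12 and 8, and Gm20521 with 375, 583 and 410 counts against 0, 0 and 0. Gm20521 was at least 165-fold lower against 3 counts per library, and it had 0 counts in the 3 P8 INSL3-KI libraries as well, which stood in the first table.

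The genes called in the libraries labelled INSL3-KO were also read in a comparison that shares no library with it, INSL3-KI testis at P23 against P8, with both ages in the first table. There 580 of 16412 genes (3.53%) were lower at P23 and 935 (5.7%) higher, on the same rule. Of the 1285 genes lower in the libraries labelled INSL3-KO and tested in both comparisons, 137 (10.7%) were lower with age and 25 (1.95%) higher, where 3.80% and 4.16% of the 15250 genes tested in both were. Of the 830 higher genes, 40 (4.82%) were lower with age and 35 (4.22%) higher, near the shares of all genes. The P8 INSL3-KI libraries differed widely among themselves (biological coefficient of variation 0.363). Few genes were called with age, so shares near those of all genes do not show that the 2 sets are unrelated.

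**Figure D5:**
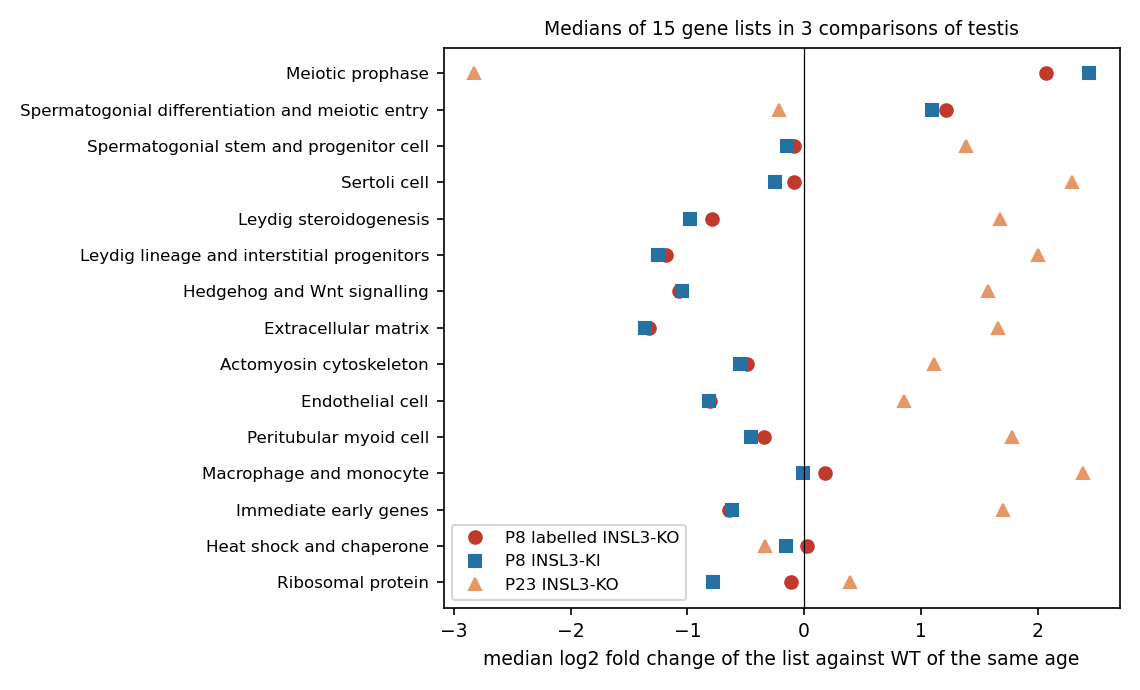
Median log2 fold change of 15 gene lists against WT of the same age, for P8 testis labelled INSL3-KO (circles), P8 INSL3-KI (squares, sharing the WT libraries with the circles) and P23 INSL3-KO (triangles, all in the second table). The meiotic prophase medians are 2.07, 2.44 and -2.82, and the extracellular matrix medians -1.33, -1.36 and 1.66.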

How the data were processed

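RNA of P8 testis, made into libraries with an mRNA kit, was sequenced in 3 WT libraries and 3 labelled INSL3-KO, and groups were taken from the labels. The authors deposited read counts per gene, not normalized, beside FPKM values, in 2 tables of 38822 and 58374 entries. The submitters' processing notes name HISAT2 and GRCm38, and the counting program and annotation are not given in the sources used here. The tables were joined on Ensembl identifiers (21561 genes). Totals per library were 35014761 to 41518622 counts, and bounds set by counts cover counting error only.

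Genes were kept by filterByExpr (minimum count 10, minimum total 15), scaled by TMM, and tested with the quasi-likelihood test of edgeR 4.0.16 (R 4.3.3), with p-values adjusted by the Benjamini-Hochberg method across every gene in the fit. A call needed adjusted p under 0.01 and a change of at least 2-fold, as in the study's methods. SEs are the absolute log2 fold change over the square root of F. The scripts were tested on simulated data. The implied transcript length is count over FPKM over library total, from which the ratio of second to first table was taken for genes of at least 50 counts. P8 INSL3-KI, P23 INSL3-KO and the interaction of genotype and age were fitted likewise. Lower bounds put a group at 3 counts per library.

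The members and the 34 gene lists were chosen with earlier results of these data known. Named genes were Insl3 and Rxfp2, the 10 largest called changes per direction among genes of like length and symbol in both tables with a mean of at least 5 CPM, the 3 largest without those conditions, 4 called members and the defining members of lists, and genes the study names for P8, as far as they are shown. 1 result is not reported here. Library pairs differed by more than sampling noise, so none was taken as the same library sequenced again and each counted as a replicate. This check cannot tell separate animals from separate preparations of 1 animal. Replicate numbers were shared by the groups, but same-numbered libraries deviated together only weakly (correlations 0.02, 0.07 and 0.02), so the main fit had no block. Alternatives were DESeq2 1.42.0, limma 3.58.1 on log2(FPKM + 1) and log2(FPKM + 0.1), library size scaling, no filter, a removed length trend, genes of equal implied length (within 1%), all testis groups in 1 fit, a replicate block and leaving out each library. Genes within 10% in length, the interaction and the INSL3-KI comparison of ages were added after seeing the data. Promoters came from RefSeq (GRCm38.p6, first listed start) for 12183 of the genes tested. Figures used matplotlib 3.10.9.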

Additional observations from a re-analysis of the deposited data

Results flagged for a closer look

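The effect of INSL3-KO against WT was compared between P8 and P23 in 1 edgeR model over 12 libraries. Among the 104 genes named above, 40 were called in opposite directions at the 2 ages with a called interaction. Over all 17485 genes in the model, 27.3% had a called negative and 28.6% a called positive interaction, whatever their direction at either age. Of the 104 genes, 86 were called at P8, many of them named for that change. The interaction holds the same P8 effect, so the count of 40 is no test of a reversal. Groups of 3 libraries were too small to look for single outlying libraries. The P8 side of each value crosses the deposited tables and the P23 side does not, so the table cannot be told apart from the age in these differences. Values are the log2 effect at P23 minus that at P8.

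Higher at P8 and lower at P23 were 19 genes, most of them of the germ line. The synaptonemal and recombination genes gave -6.46 for Sycp3, -5.65 for Sycp1, -6.74 for Hormad1, -4.43 for Tex12, -9.32 for Spo11, -4.30 for Dmc1 and -5.79 for Rad51ap2. Meiob gave a fitted value of -12.02, Nupl1 of -12.25 and Gm49340 of -8.76. Each had WT libraries at 0 counts at P8 (0, 20 and 26 for Gm49340), so that these sizes depend on the prior count. Nupl1 was also among the genes marked above, whose level differed without overlap between the other libraries of the deposited tables. Gm49340 had an implied length ratio of 0.42. The part that the tables had in these values was not tested. Other germ cell genes gave -7.52 for Meioc, -6.03 for Tex101, -6.57 for Magea4, -7.02 for Prss50, -9.09 for Ly6k, -9.19 for Dpep3 and -5.71 for Gal3st1. The cyclin Ccne2 gave -4.07 and the retinoic acid enzyme Aldh1a2 -2.91.

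Lower at P8 and higher at P23 were 21 genes, of somatic cells for the most part. Sertoli and Leydig genes gave 5.70 for Amh, 2.79 for Dhh, 5.07 for Hsd17b1, 4.63 for Lhcgr, 5.005 for Dlk1 and 4.35 for Pdgfra. The P8 effect of Lhcgr had the opposite sign on log2(FPKM + 0.1), 0.25, at an implied length ratio of 0.39. Matrix and cytoskeletal genes gave 3.32 for Col1a1, 3.68 for Hspg2, 4.81 for Vcan and 4.22 for Myh9. Signalling genes gave 4.21 for Gli1, 2.42 for Wnt5a, 3.74 for Heyl and 4.95 for Ret, and the transcription factors Six5 and Egr1 gave 2.94 and 3.52. Cyr61 gave 3.67, Ccnd2 4.22, Tmem119 3.02, Soga1 4.30 and Car3 6.02.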

How the results depend on the processing

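Lower calls numbered 671 on log2(FPKM + 1), 526 among the 6672 genes of the same implied length and 2343 at 1.5-fold, against 1316 in the report. Higher calls numbered 388 at the same implied length and 1837 at 1.5-fold, against 855. Fewer genes entered the equal-length test, and otherwise the cause was not tested. Leaving out 1 library gave 1014 to 1667 lower and 609 to 1193 higher calls. The replicate block gave 1150 lower and 725 higher calls, and DESeq2 1515 and 1032. With the block, Acr, Col1a1, Tmem119, Car3 and Adipoq lost their calls and Pecam1 gained one. Each library correlated best with its own number in the other group, a hint from the data only.

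P8 INSL3-KI calls were 1135 lower and 1013 higher with DESeq2, 315 lower with library size, 1 lower and 5 higher with the block, and 0 to 497 lower and 0 to 438 higher without 1 library. At P23 the counts were 5503 to 5721 lower and 5041 to 5104 higher without 1 library.

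The steroidogenesis median moved to -0.65 within 10% in length, -0.66 by library size, -0.49 and -0.42 on log2(FPKM + 0.1) and log2(FPKM + 1), -0.56 at the same length, and -0.79 to -0.62 without 1 library. The Leydig lineage median was -0.70 on log2(FPKM + 1) and -1.21 to -0.84 without 1 library, and the hedgehog and Wnt median -0.75 on log2(FPKM + 1) and -1.20 to -0.92. Without 1 library, the other medians ran from 1.84 to 2.40 for meiotic prophase, 0.99 to 1.55 for meiotic entry, -1.42 to -0.94 for matrix and -0.10 to -0.03 for Sertoli genes.

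Reversed medians were those of Sertoli cell (0.37) and hepatocyte genes (-1.32) at the same length and heat shock genes with the length trend removed (-0.023). Without 1 library, the medians that crossed 0 and moved beyond the spread between libraries ran from -0.20 to 0.12 for stem cell genes (positive without WT replicate 1), -0.23 to 0.35 for inflammation (positive without WT replicate 3), -0.093 to 0.094 for cholesterol (negative without WT replicate 3) and -0.040 to 0.13 for retinoic acid genes (negative without INSL3-KO replicate 3). Without WT replicate 3 the medians of mesothelium (0.76), epididymis (0.092) and heat shock genes (-0.0047) crossed 0 within that spread. Genes that crossed 0 were Sohlh1 (-0.12 with the length trend removed, -0.10 to 0.56 without 1 library), Acta2 (-0.11 with the trend removed, -0.056 to 0.18 without 1 library), Piwil1 (-0.32 to 0.16 without 1 library), Mlh3 (0.090 with the trend removed, 0.013 by library size), Hsd3b1 (0.033 by library size) and, on log2(FPKM + 0.1) and log2(FPKM + 1), Id4 (0.40 and 0.35), Lhcgr (0.25 and 0.21) and Hhip (0.15 and 0.14). The cause was not tested. Of 104 named genes, 71 kept direction and side of the threshold in all alternatives they could be tested in, and of the 86 called genes 63 did.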
